A study of Mus musculus with 9 samples.

Results

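Genes that mark pericytes were followed in laser-induced choroidal neovascularization, in which choroidal vessels of the mouse grow through a membrane broken by a laser burn. The 9 genes, Pdgfrb, Rgs5, Cspg4, Kcnj8, Abcc9, Notch3, Des, Higd1b and Cox4i2, were chosen by name as markers and taken by symbol from count tables of 24421 genes. They were chosen with earlier results of these data known. All 9 were found, all 9 had a count in every library, and all 9 passed the filter on low counts.

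Pericytes are mural cells that sit on capillaries and share a basement membrane with the endothelium. Endothelial cells secrete the growth factor PDGF-B, and pericytes carry its receptor, PDGFRβ, through which they are recruited to growing vessels and kept there. In the eye they cover retinal and choroidal capillaries, and in neovascular membranes cells with pericyte markers lie on the new vessels. These markers are not exclusive to pericytes: Pdgfrb, Rgs5, Abcc9, Notch3 and Des are also used by vascular smooth muscle, Pdgfrb by fibroblasts, and Des by skeletal muscle.

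The libraries came from male mice, 8 weeks old, whose eyes were given 4 laser burns each and 5 µg of reagent, at 5 mg/ml, into the vitreous. There were 3 libraries each after Fc, an antibody fragment that served as the control, after ABTAA, which activates Tie2 on endothelium by way of angiopoietin 2, the antigen of this antibody, and after VEGF Trap, a decoy that soaks up VEGF. Lesions were laser-captured with a rim of choroid and pigment epithelium, and RNA was sequenced from transcript 3′ ends. All 3 groups carried burns, and no unburned eye was analysed here. The sources used here do not give strain, genotype or time of harvest. Groups follow the sample titles, whereas the column headings for Fc read as knockout controls. Which animal or animals gave each library is not labelled, and p-values therefore measure only the spread between these libraries, which may be technical.

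Total counts ran from 6335805 to 14439835 per library. Levels are counts relative to the TMM-scaled library total (CPM), and differences are log2 fold changes ± standard error (SE) from edgeR's quasi-likelihood test with Benjamini-Hochberg adjustment over 14054 genes, at a threshold of 0.05. The tissue was mixed: each of the 17 genes of a skeletal muscle list, the 16 of an endothelial list, the 9 of a fibroblast list and the 9 of a macrophage list had counts in all 9 libraries. In such bulk tissue, fewer pericytes and less RNA per pericyte cannot be told apart.

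On GRCm38 (mm10), Cspg4 lies at chr9:56865033-56899870, Notch3 at chr17:32120820-32166852, Higd1b at chr11:102835849-102838040 and Cox4i2 at chr2:152754173-152765037. Chromosome 1 holds Rgs5 at chr1:169655501-169695813 and Des at chr1:75360329-75368579. Kcnj8 and Abcc9, whose products are the pore and the regulatory subunit of the vascular ATP-sensitive potassium channel, are neighbours on the minus strand, at chr6:142564837-142571614 and chr6:142587862-142702315, with 16248 bases between them. No member had a near copy among other transcripts' 3′ ends. Exons of Abcc9, Des and Notch3 overlap a gene on the other strand, and the sources used here do not say whether counting used strand. The partner of Abcc9, 5330439B14Rik, had 0 counts in every library, and that of Des, Gm15179, had 0 to 9.

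The bases just upstream of the start site are shown for the channel's 2 genes, which lie side by side and whose values are set against each other here, and for Des, which had the smallest p-value of the 9 genes. They are RefSeq sequences on GRCm38.p6, a table that matched 6 of the 9 members, written 5′ to 3′ on the gene's strand. Capitals mark an E-box (CANNTG, bound by basic helix-loop-helix factors), a GC box (GGGCGG or its complement, bound by Sp factors) or the core TGGGAA bound by RBPJ, the factor downstream of Notch. The Kcnj8 window is chr6:142571615-142571864, that of Abcc9 is chr6:142702316-142702524, without 41 bases that are annotated as exon, and that of Des is chr1:75360042-75360291.
Kcnj8: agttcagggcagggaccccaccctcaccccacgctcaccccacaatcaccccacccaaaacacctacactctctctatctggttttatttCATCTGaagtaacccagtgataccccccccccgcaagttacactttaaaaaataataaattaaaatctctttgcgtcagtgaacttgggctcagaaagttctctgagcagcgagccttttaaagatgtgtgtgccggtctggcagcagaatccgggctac
Abcc9: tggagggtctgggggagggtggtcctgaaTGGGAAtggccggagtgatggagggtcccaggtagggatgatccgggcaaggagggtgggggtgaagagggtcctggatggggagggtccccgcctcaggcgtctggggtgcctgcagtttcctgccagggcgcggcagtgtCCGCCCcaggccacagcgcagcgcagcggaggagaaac
Des: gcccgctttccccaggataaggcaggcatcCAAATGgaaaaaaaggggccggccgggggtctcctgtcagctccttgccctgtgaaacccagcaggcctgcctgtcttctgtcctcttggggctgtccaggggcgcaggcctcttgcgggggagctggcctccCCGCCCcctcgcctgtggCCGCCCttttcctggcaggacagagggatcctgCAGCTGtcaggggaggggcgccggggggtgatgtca
In the 250 bases before the start site Des held 2 E-boxes and 2 GC boxes, Abcc9 held 1 GC box, 1 RBPJ core and 1 E-box that lies among the bases not printed, and Kcnj8 held 1 E-box. On both strands and over the same 250 bases of 27025 promoters, 66.0% held the E-box letters, 32.9% the GC box and 21.5% the RBPJ core. TATAAA, present in 13.0% of promoters, and the CArG box of serum response factor, present in 1.40%, had no match in the 250 bases of these 3 genes. A match describes letters and not a bound site.

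ABTAA against Fc sets the Tie2-activating antibody beside the control in this mixed tissue. None of the 9 members passed the threshold, where 1.40% of all tested genes did. Of the members, 8 had a log2 fold change above 0, as did 49.6% of all genes, with a median of 0.35 against -0.0029 over all genes tested, and 3 had an unadjusted p under 0.05 (Des, Rgs5 and Pdgfrb), as did 16.9% of all genes. The 3 Fc and 3 ABTAA libraries did not overlap for 1 of 9 members, Des, and for 23.0% of all genes, 11.7% higher and 11.3% lower.

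VEGF Trap against Fc, the comparison for VEGF withdrawal, also left all 9 members short of the threshold, which 1.02% of genes passed. Here 5 members lay above 0, as did 50.1% of all genes, the median was 0.02 against 0.0010 over all genes, and 2 had an unadjusted p under 0.05 (Kcnj8 and Des), as did 15.4% of all genes. Groups did not overlap for 3 of 9 members, of which Des and Cox4i2 were higher and Kcnj8 was lower after VEGF Trap. The same held for 20.9% of all genes, 10.4% higher and 10.5% lower. Both comparisons use the same Fc libraries.

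ABTAA against VEGF Trap had 0 genes past the threshold by edgeR (0% of those tested) and 711 at an unadjusted p under 0.05, or 5.06%. DESeq2 passed 1 gene, limma-voom 0, edgeR without the filter on low counts 30 and edgeR with the replicate block 1, and no member passed in any of them. Among the 9 members, 8 had a log2 fold change above 0, as did 49.5% of all genes, and their median was 0.28. Groups did not overlap for 1 member, Cspg4, which was higher after ABTAA, and for 9.88% of genes, 5.14% higher and 4.74% lower. In order of group means, ABTAA was highest for 7 members, Fc for Kcnj8 and VEGF Trap for Higd1b. The share of all genes with such an order was not computed. Some of these means lay close, as for Cox4i2 at 2.25 CPM after ABTAA and 2.14 CPM after VEGF Trap. ABTAA library 3 held the highest value of Pdgfrb, Abcc9, Notch3, Des and Cox4i2, and other libraries that of the remaining members. That library had the fewest total counts of all, 6335805. The share of all genes that were highest in it was not computed.

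**Figure D1:**
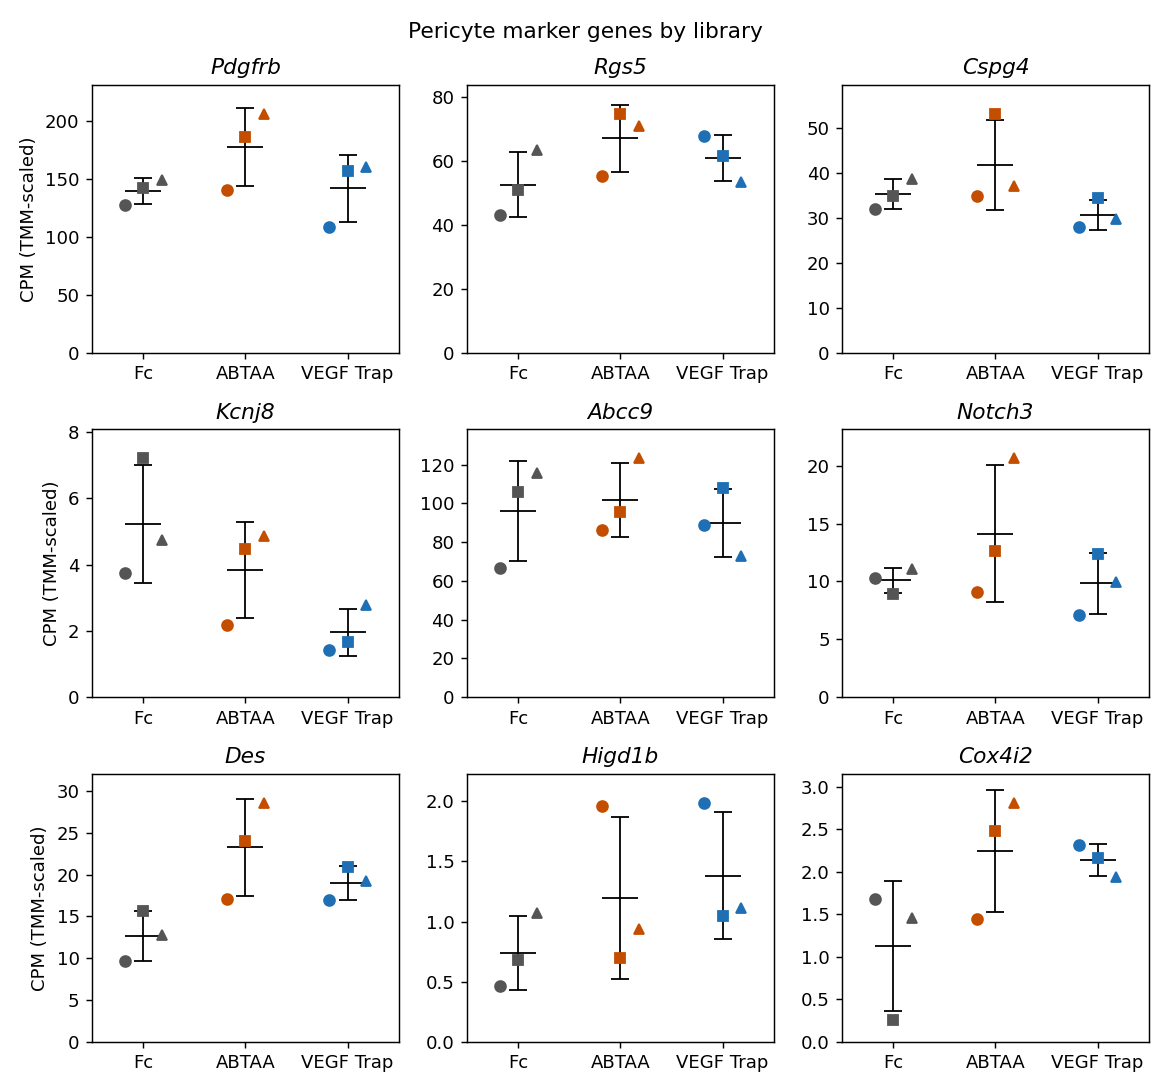
TMM-scaled CPM of each of the 9 genes in each library (vertical axes, from 0, with a scale per gene), by group on the horizontal axis. Circles, squares and triangles are libraries 1, 2 and 3, the long bar is the mean and the whiskers are 1 SD (n = 3); Des is the gene in which both treated groups lie above all Fc libraries, and Kcnj8 the gene in which VEGF Trap lies below them.

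Pdgfrb, at chr18:61045150-61085061, encodes the PDGF-B receptor itself. Its level was 127, 142 and 149 CPM after Fc, 140.3, 186 and 206 CPM after ABTAA, and 108, 157 and 161 CPM after VEGF Trap. The highest value was that of ABTAA library 3 and the lowest that of VEGF Trap library 1, and ABTAA library 1 lay inside the Fc range. Against Fc the difference was 0.35 ± 0.16 after ABTAA (adjusted p = 0.291) and 0.02 ± 0.16 after VEGF Trap (adjusted p = 0.974), and without ABTAA library 3 the first was 0.23. The Pdgfrb counts were even in all 9 libraries, as in 1616 of the 14167 genes with a count in every library (11.4%). Whether reads were entered more than once was not tested.

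Rgs5, a regulator of G-protein signalling that damps receptor signals in mural cells, had levels of 43.2, 51.0 and 63.3 CPM after Fc. After ABTAA they were 55.3, 74.8 and 71.0 CPM, and after VEGF Trap 67.7, 61.4 and 53.5 CPM. ABTAA libraries 2 and 3 and VEGF Trap library 1 were above every Fc library, and the others lay within the Fc range. The differences from Fc were 0.35 ± 0.16 (adjusted p = 0.288) and 0.21 ± 0.16 (adjusted p = 0.571), and without Fc library 1 they were 0.23 and 0.092.

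Cspg4, which encodes the surface proteoglycan NG2, was at 32.0, 35.0 and 38.7 CPM after Fc, at 34.9, 53.3 and 37.1 CPM after ABTAA, and at 28.0, 34.5 and 29.8 CPM after VEGF Trap. One ABTAA library, number 2, stood above the rest, and the other two lay among the Fc values. Between the treatments the groups did not overlap, since the lowest ABTAA value was just above the highest after VEGF Trap, and the difference was 0.44 ± 0.17 (unadjusted p = 0.0190, adjusted p = 0.949). Against Fc it was 0.25 ± 0.17 after ABTAA (adjusted p = 0.491) and -0.19 ± 0.17 after VEGF Trap (adjusted p = 0.627). Without ABTAA library 2 the difference between the treatments was 0.22 and that of ABTAA from Fc was 0.030.

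Notch3, the Notch receptor of mural cells, was at 10.3, 8.91 and 11.1 CPM after Fc, at 9.09, 12.6 and 20.6 CPM after ABTAA, and at 7.13, 12.4 and 9.98 CPM after VEGF Trap. The ABTAA libraries spread by a coefficient of variation of 42.0%, against 10.8% within Fc, with library 3 at the top. Neither difference from Fc passed, at 0.47 ± 0.28 after ABTAA (adjusted p = 0.427) and -0.03 ± 0.28 after VEGF Trap (adjusted p = 0.976). The ABTAA difference was 0.10 without ABTAA library 3 and 0.70 without ABTAA library 1.

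Des encodes desmin, the intermediate filament of muscle cells and of many pericytes. Its level was 9.62, 15.6 and 12.8 CPM after Fc, 17.1, 24.0 and 28.6 CPM after ABTAA, and 16.9, 20.9 and 19.3 CPM after VEGF Trap. Every treated library lay above every Fc library, and the 2 treated groups overlapped each other. The difference from Fc was 0.86 ± 0.21 after ABTAA, with a 95% interval of 0.41 to 1.32 (unadjusted p = 0.000988, adjusted p = 0.0568), and 0.58 ± 0.21 after VEGF Trap (adjusted p = 0.187). ABTAA exceeded VEGF Trap by 0.28 ± 0.21 (adjusted p = 0.964).

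The Des call depended on the processing. It passed in ABTAA against Fc under 5 of 10 other choices, among them DESeq2 (adjusted p = 0.00958) and limma-voom (adjusted p = 0.0439), and without ABTAA library 1 (adjusted p = 0.0484) or VEGF Trap library 1 (adjusted p = 0.0478). Over the omission of each of the 9 libraries the difference ran from 0.69 to 1.04 and the adjusted p from 0.048 to 0.197.

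**Figure D2:**
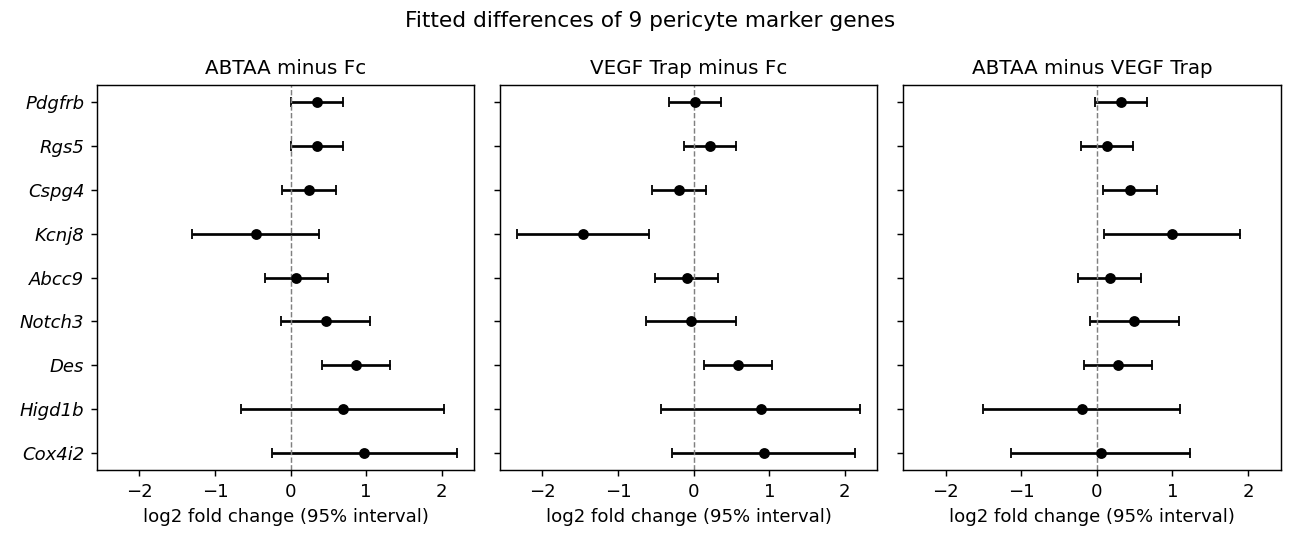
Log2 fold changes of the 9 genes (horizontal axes) in the 3 comparisons, with points for the edgeR estimates and bars for their 95% intervals. In ABTAA against Fc, 8 points lie to the right of 0, and the interval of Des lies furthest from 0 there, while Kcnj8 lies furthest to the left in VEGF Trap against Fc; no member passed the adjusted threshold.

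Kcnj8 encodes Kir6.1, the pore of the vascular ATP-sensitive potassium channel. It had 40, 85 and 62 counts after Fc, 21, 45 and 31 after ABTAA, and 17, 24 and 20 after VEGF Trap, which correspond to 3.74, 7.21 and 4.73 CPM, to 2.17, 4.46 and 4.85 CPM, and to 1.41, 1.67 and 2.77 CPM. All VEGF Trap libraries were below all Fc libraries, and the ABTAA libraries overlapped both. The difference was -1.46 ± 0.41 for VEGF Trap against Fc, with a 95% interval of -2.33 to -0.59 (unadjusted p = 0.00281, adjusted p = 0.0890), and -0.46 ± 0.39 for ABTAA against Fc (adjusted p = 0.604), where it was -0.16 without Fc library 2 and -0.17 without ABTAA library 1. ABTAA exceeded VEGF Trap by 0.996 ± 0.423 (adjusted p = 0.956). With no filter on low counts the VEGF Trap difference passed (-1.46, adjusted p = 0.0203), and leaving out libraries in turn gave -1.75 to -1.15, with adjusted p from 0.072 to 0.335.

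Abcc9 encodes SUR2, the partner subunit of the same channel. Its level was 66.8, 106 and 116 CPM after Fc, 86.2, 95.7 and 123 CPM after ABTAA, and 88.7, 108 and 72.8 CPM after VEGF Trap. The 3 groups overlapped throughout, and the differences from Fc were 0.08 ± 0.20 (adjusted p = 0.890) and -0.09 ± 0.20 (adjusted p = 0.877). Within a library, the ratio of Abcc9 to Kcnj8 counts was 14.7 to 24.4 after Fc, 21.4 to 39.8 after ABTAA and 26.25 to 64.7 after VEGF Trap, so the VEGF Trap range began above the Fc range. This ratio was chosen after the values were seen and was not tested.

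**Figure D3:**
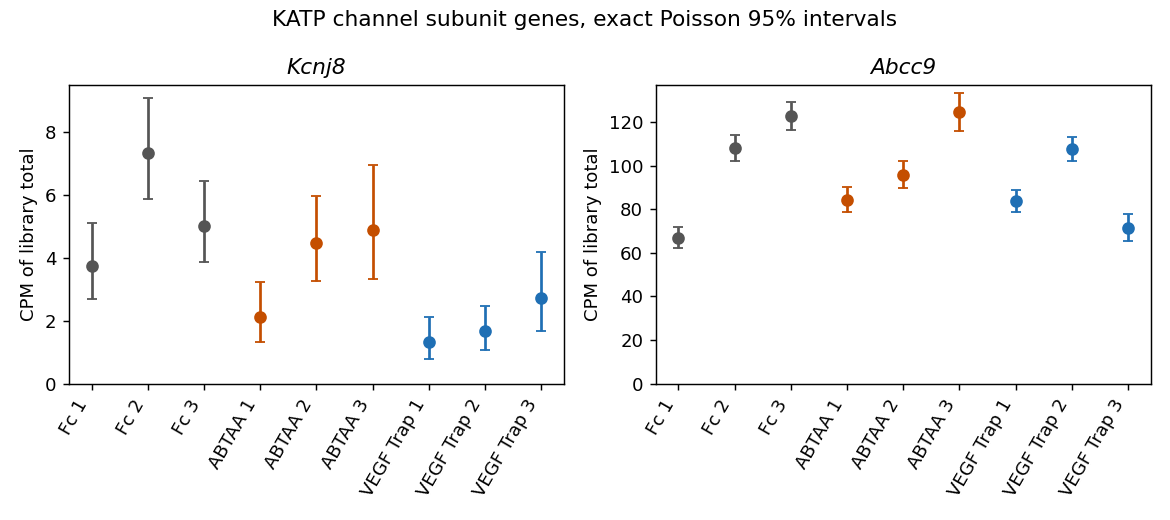
CPM of the unscaled library total for Kcnj8 and Abcc9 (vertical axes, from 0) in each of the 9 libraries, with exact Poisson 95% intervals that cover counting error only. All 3 VEGF Trap points of Kcnj8 lie below the 3 Fc points, while the Abcc9 points of the groups are interleaved.

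Higd1b and Cox4i2, which encode a member of the HIG1 hypoxia-inducible domain family and an isoform of a cytochrome c oxidase subunit that pericytes express, were near the limit of detection. Higd1b had 5, 8 and 14 counts after Fc, 19, 7 and 6 after ABTAA, and 24, 15 and 8 after VEGF Trap. The groups overlapped, and the differences from Fc, 0.69 ± 0.63 (adjusted p = 0.638) and 0.89 ± 0.62 (adjusted p = 0.539), had intervals that reached from below 0 to 2.04 and 2.20. Without ABTAA library 1 the first was 0.11, and without VEGF Trap library 1 the second was 0.53. Cox4i2 had 18, 3 and 19 counts after Fc, 14, 25 and 18 after ABTAA, and 28, 31 and 14 after VEGF Trap. The lone low library, Fc 2, had an exact Poisson 95% interval of 0.62 to 8.77 counts. Its differences from Fc were 0.98 ± 0.58 (adjusted p = 0.422) and 0.92 ± 0.57 (adjusted p = 0.475), and without Fc library 2 they were 0.51 and 0.46.

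The 9 genes varied together only in part across libraries. Over the 36 pairs of members, Pearson's r of log2 CPM over the 9 libraries was above 0 for 28, with a median of 0.40, and with group means removed the median was 0.29. Pdgfrb and Notch3 had the highest r, 0.89 (0.85 with group means removed), followed by Rgs5 with Des (0.74) and Pdgfrb with Des (0.71). Kcnj8 with Higd1b had the lowest, -0.69, and Kcnj8 with Abcc9 had 0.31. These values describe 9 libraries that share scaling and depth between the genes of a pair, and 3 of the members had few counts.

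Among 10417 genes with at least 5 CPM on average, those most like Pdgfrb over the 9 libraries were Tmem80 (r = 0.96), Plekha8 (r = 0.95), Cnn3 (r = 0.95) and Cdk4 (r = 0.95). For Rgs5 they were Scara5 (r = 0.97), Met (r = 0.93), Echdc1 (r = 0.92) and 4932438H23Rik (r = 0.91). For Des they included Zdhhc18 (r = 0.97), Ttll5 (r = 0.94) and Poldip3 (r = 0.93). None of the other members that reached 5 CPM was among the 4 genes most like these 3. Kcnj8, Cox4i2 and Higd1b averaged 3.67, 1.84 and 1.11 CPM and were therefore not compared.

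The members stood beside shifts in muscle genes. The 17 skeletal muscle genes summed to 166 to 250.2 CPM after Fc, 321 to 658 CPM after ABTAA and 309 to 518 CPM after VEGF Trap, so every treated library was above every Fc library, as for Des. This list was chosen with earlier results of these data known. Of its 17 genes, 8 rose past the threshold after ABTAA, as did 0.847% of all genes tested. Among the 8 were Ckm, by 2.16 ± 0.32 (adjusted p = 0.00872), and Acta1, by 1.90 ± 0.32 (adjusted p = 0.0148), which encode muscle creatine kinase and skeletal actin. After VEGF Trap 3 rose (Acta1, Atp2a1 and Tnnt3), as did 0.512% of all genes tested. These counts rested on single libraries: in ABTAA against Fc 0 of the 17 passed without Fc library 2 or ABTAA library 2 (where 13 and 0 of all genes did), 3 without Fc library 3, and 5 without Fc library 1 or ABTAA library 3. In VEGF Trap against Fc 0 passed without Fc library 1 or 2, ABTAA library 3 or VEGF Trap library 2 or 3, and 1 without Fc library 3 or VEGF Trap library 1. The r with the skeletal muscle total over 9 libraries was 0.80 for Cox4i2, 0.78 for Des, 0.77 for Rgs5, 0.56 for Pdgfrb and for Notch3, 0.45 for Cspg4, 0.28 for Abcc9, 0.17 for Higd1b and -0.34 for Kcnj8.

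With the log2 skeletal muscle total as a covariate, the ABTAA difference of Des was 0.58 (adjusted p = 0.762), that of Pdgfrb was 0.01 and that of Rgs5 was -0.06. The VEGF Trap difference of Kcnj8 was -1.50 (adjusted p = 0.421). In that fit 0 genes passed in ABTAA against Fc and 1 in VEGF Trap against Fc. Since all Fc libraries lay below all treated ones in this total, muscle content and treatment cannot be told apart.

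The 12 smooth muscle genes summed to 911 to 1081 CPM after Fc, 1086 to 1352 CPM after ABTAA and 765 to 1094 CPM after VEGF Trap. Among the 9 members Pdgfrb had the highest r with this total, 0.96, against 0.81 for Notch3, 0.79 for Cspg4, 0.65 for Des, 0.47 for Abcc9, 0.46 for Kcnj8, 0.45 for Rgs5, 0.22 for Cox4i2 and -0.28 for Higd1b. Of the 11 smooth muscle genes tested, Smtn, which encodes smoothelin, rose after ABTAA from 77.2, 67.7 and 69.6 CPM to 105, 111 and 124 CPM, by 0.66 ± 0.14 (adjusted p = 0.0350). It lost the call without any single Fc or ABTAA library (adjusted p from 0.0609 to 0.149). After VEGF Trap Smtn was at 101, 119 and 83.6 CPM, also above every Fc library. No smooth muscle gene passed after VEGF Trap in the 9-library edgeR model, while Smtn and Mylk did by DESeq2 and with no filter. Acta2, smooth muscle actin, had 0.48 ± 0.18 after ABTAA (adjusted p = 0.178), and Myh11, smooth muscle myosin, 0.59 ± 0.19 (adjusted p = 0.120). With no filter and with the replicate block Acta2 passed in ABTAA against Fc. None of the 9 fibroblast genes passed in the 9-library edgeR model, while Fbln1 passed after ABTAA by DESeq2, by limma-voom and under 5 other choices, and after VEGF Trap by DESeq2. Their total had r = -0.74 with Pdgfrb. The part of muscle or fibroblast tissue in the members' values was not tested beyond these figures.

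**Figure D4:**
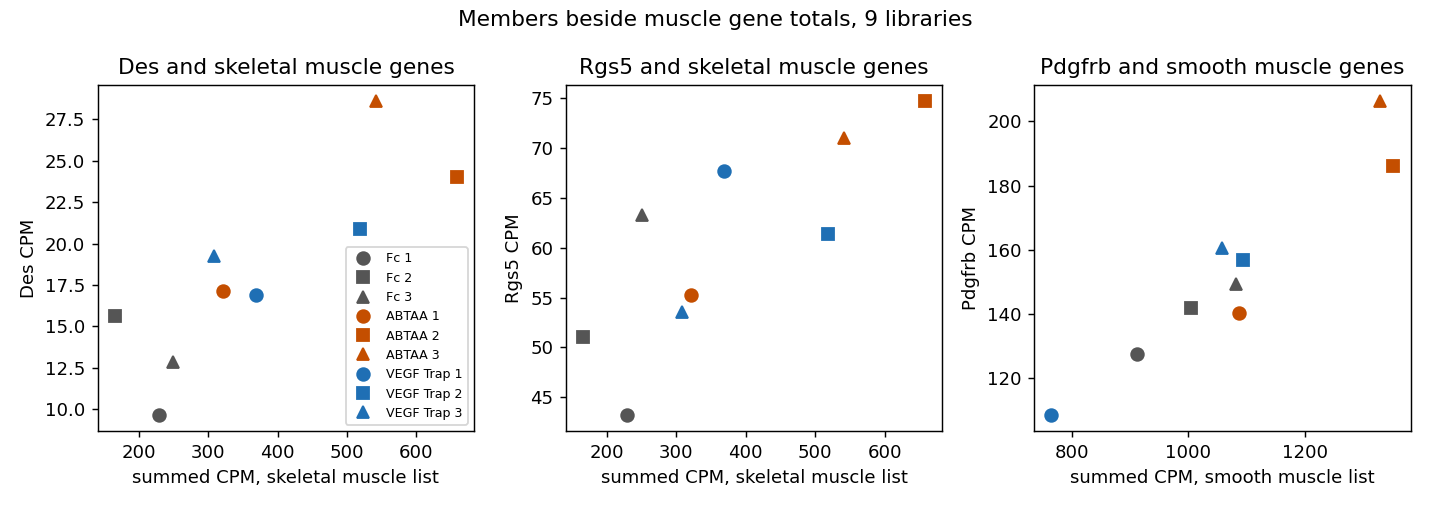
Des and Rgs5 against the summed CPM of the skeletal muscle list, and Pdgfrb against that of the smooth muscle list, one point per library (axes in TMM-scaled CPM, not starting at 0). Fc libraries lie at 166 to 250.2 CPM on the skeletal muscle axis, to the left of all treated libraries, and Pdgfrb increases with the smooth muscle total.

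Endothelial genes, the partners of pericytes on the vessel, gave a yardstick. Their 16 genes summed to 2029 to 2574 CPM after Fc, 3077 to 3199 CPM after ABTAA and 2369 to 2647 CPM after VEGF Trap. After ABTAA 5 of the 16 rose (Eng, Plvap, Cldn5, Egfl7 and Pecam1), as did 0.847% of all genes tested. This list, too, was chosen with earlier results of these data known. After VEGF Trap 0 passed in the 9-library edgeR model, 3 by DESeq2 (Cldn5, Eng and Plvap), 2 by limma-voom (Cldn5 and Eng) and 1 or 2 under 5 other choices. The summed members divided by the summed endothelial genes gave 0.115 to 0.190 after Fc, 0.109 to 0.161 after ABTAA and 0.122 to 0.154 after VEGF Trap, ranges that overlapped in all 3 pairs of groups. Of the 16 genes, 0 passed in ABTAA against Fc without Fc library 2 or ABTAA library 2, 1 without Fc library 3, and 3 without ABTAA library 1 or 3. In the edgeR model, by DESeq2 and by limma-voom, 0 of 6 pigment epithelium genes and 0 of 7 Schwann cell genes passed in any comparison, and with no filter Rpe65 passed after VEGF Trap. Pmel of 8 melanocyte genes rose in both treatments by all 3 tools, calls that were lost without ABTAA library 2 after ABTAA and without any single Fc or VEGF Trap library after VEGF Trap. Of 9 macrophage genes C1qb fell after ABTAA in the edgeR model, and it also passed by DESeq2 and limma-voom. Of the 9 omissions, its edgeR call held only without VEGF Trap library 1. Aif1 passed after ABTAA by DESeq2, by limma-voom and with no filter, and Mrc1 by DESeq2 and with no filter.

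Of 20 other genes enriched in pericytes, 19 were tested, and 1 rose after ABTAA. Gja4, which encodes the gap junction protein connexin 37 of arterial endothelium and mural cells, had 11.6, 9.51 and 14.4 CPM after Fc, 24.99, 31.4 and 22.1 CPM after ABTAA, and 20.1, 16.9 and 16.8 CPM after VEGF Trap. The 3 groups did not overlap in any pair. Gja4 rose after ABTAA by 1.15 ± 0.19 (adjusted p = 0.0148), and the VEGF Trap difference was 0.60 ± 0.19 (adjusted p = 0.133). Without Fc library 2 or ABTAA library 2 the ABTAA call was lost (1.01, adjusted p = 0.0975, and 0.99, adjusted p = 0.0949), and with the skeletal muscle covariate it was 0.83 (adjusted p = 0.596).

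The other 18 genes of that list did not pass after ABTAA. Foxf2, a transcription factor of brain pericytes, had 0.70 ± 0.26 (adjusted p = 0.190), and Angpt1, the Tie2 ligand that mural cells make, 0.26 ± 0.10 (adjusted p = 0.203). After VEGF Trap none of the 19 passed in the edgeR model or by limma-voom, while Mcam, which was lower, passed by DESeq2, with library totals and with no filter. Anpep passed with no filter and with the replicate block, in the other direction. It was at 14.6, 10.3 and 10.7 CPM after Fc and 27.9, 19.0 and 13.9 CPM after VEGF Trap, where library 3 lay within the Fc range. Mcam, the adhesion molecule CD146 of pericytes and endothelium, had the smallest p there, at 109, 71.5 and 93.0 CPM after Fc and 68.1, 54.9 and 62.0 CPM after VEGF Trap, a difference of -0.57 ± 0.15 (adjusted p = 0.0779). Against Fc its ABTAA difference was 0.00088 ± 0.15 (adjusted p = 0.998). The list's median was 0.12 after ABTAA and 0.05 after VEGF Trap, next to 0.35 and 0.02 for the 9 members.

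Of 20 genes of the pathway that recruits pericytes, 19 were tested and none passed in the edgeR model in either treatment. An unadjusted p under 0.05 was found for 6 after ABTAA and 4 after VEGF Trap, and for 16.9% and 15.4% of all genes. The pathway's ligand Pdgfb, made by endothelium, was at 23.4, 17.3 and 19.8 CPM after Fc, 28.0, 31.0 and 33.0 CPM after ABTAA, and 31.0, 25.5 and 24.0 CPM after VEGF Trap. Every treated library was above every Fc library, and the differences were 0.60 ± 0.16 (adjusted p = 0.0682) and 0.42 ± 0.16 (adjusted p = 0.210). The ABTAA difference of Pdgfb passed by DESeq2, by limma-voom, with no filter and without VEGF Trap library 1. The kinase Src had 0.42 ± 0.16 after ABTAA (adjusted p = 0.199), the adaptor Shc1 had 0.37 ± 0.12 after VEGF Trap (adjusted p = 0.146), and the TGF-β receptor Tgfbr1 had -0.41 ± 0.15 after ABTAA (adjusted p = 0.179) and -0.37 ± 0.15 after VEGF Trap (adjusted p = 0.241). The list's median was -0.07 in both comparisons with Fc.

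Paralogs and partners gave a view of each family, and none of the 12 tested passed in the edgeR model or by limma-voom. Pdgfra, the sister receptor of Pdgfrb and a fibroblast gene, was at 66.3, 55.8 and 55.4 CPM after Fc and at 43.3, 49.8 and 52.1 CPM after ABTAA, a difference of -0.29 ± 0.15 (adjusted p = 0.341). The ratio of Pdgfrb to Pdgfra counts was 1.92 to 2.69 after Fc, 3.24 to 3.96 after ABTAA and 2.52 to 2.81 after VEGF Trap, so that ABTAA stood apart from both. Neither gene passed the threshold, this ratio was not tested, and the share of other gene pairs that separate in this way was not computed. The Pdgfrb counts were even in all 9 libraries and the Pdgfra counts were not (419 in ABTAA library 1). Whether this affects the level of the ratio was not tested.

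Rgs2, a relative of Rgs5, was at 129, 137 and 111 CPM after Fc, 97.6, 75.4 and 103 CPM after ABTAA, and 88.0, 94.8 and 81.4 CPM after VEGF Trap. Both treated groups lay below Fc, opposite in sign to Rgs5, at -0.45 ± 0.14 (adjusted p = 0.0975) and -0.51 ± 0.13 (adjusted p = 0.0712), and both passed by DESeq2 and with no filter, the second also with library totals. Notch4, an endothelial receptor, had 7.94, 7.81 and 7.33 CPM after Fc and 11.4, 11.8 and 12.4 CPM after ABTAA (0.62 ± 0.22, adjusted p = 0.160). Cox4i1, the ubiquitous isoform of Cox4i2, ranged from 147 to 206 CPM with groups that overlapped. Higd1c had 0 counts in every library, and of the pancreatic and cardiac channel subunits Kcnj11 had at most 14 counts and Abcc8 at most 2 per library, so Kcnj8 and Abcc9 were the subunits of their families that were tested.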

How the data were processed

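RNA of laser-captured lesions was sequenced in 9 libraries with LEXOGEN QuantSeq, a 3′-end kit, from 500 ng of total RNA per the labels' protocols. The deposited values are whole-number counts per gene symbol. The submitters' processing notes name Bowtie2, edgeR and mm10; the sources used here give no version, annotation, counting tool, strand setting or rule for multi-mapped reads. The 9 members and 11 further gene lists were chosen with earlier results of these data known.

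After filterByExpr and TMM scaling, 1 edgeR 4.0.16 model (R 4.3.3) held all 9 libraries, with 6 residual degrees of freedom, and p-values were adjusted over 14054 genes. Standard errors were derived from the estimate and the square root of F. Named genes were all members, the called genes of each list (at most 6) or else up to 3 with the smallest p, and the 4 genes most like Pdgfrb, Rgs5 and Des, of which 1 is not reported here, nor is 1 list gene. Log2 CPM for correlations used a prior count of 2. Coordinates are from GENCODE on GRCm38, and copies were sought with BLAST+ 2.17.0 (100 bases at 95% identity in the last 200). Scripts were tested on simulated data. Alternatives included DESeq2 1.42.0, limma-voom (limma 3.58.1), other scaling and filters, a muscle covariate and the omission of each library.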

Additional observations from a re-analysis of the deposited data

How the results depend on the processing

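The number of members past the threshold was 1 instead of 0 in ABTAA against Fc with DESeq2, limma-voom, no filter, the replicate block or counts divided by their common divisor, and 0 to 1 over omitted libraries; in each case the gene was Des. In VEGF Trap against Fc it was 1 with no filter (Kcnj8) and otherwise 0; in ABTAA against VEGF Trap it was 0 throughout. Of 509 single-gene values of the 9 members under the alternatives, 468 kept direction and side of the threshold, 9 kept direction but had no adjusted p, 8 passed the threshold and 24 reversed in sign, all of the 24 short of the threshold. With the skeletal muscle covariate the ABTAA minus Fc values reversed for Abcc9 (-0.30), Cox4i2 (-0.27), Cspg4 (-0.23), Notch3 (-0.32) and Rgs5 (-0.060), the VEGF Trap minus Fc values for Pdgfrb (-0.22) and Rgs5 (-0.079), and the ABTAA minus VEGF Trap value for Cox4i2 (-0.33). In VEGF Trap against Fc, library totals gave Pdgfrb -0.055 and limma-voom gave Notch3 0.044. Omitting a library reversed values near 0: Abcc9 ran from -0.13 to 0.22 after ABTAA and from -0.30 to 0.053 after VEGF Trap, Notch3 from -0.25 to 0.17 and Pdgfrb from -0.071 to 0.19 after VEGF Trap, and in ABTAA against VEGF Trap Cox4i2 ran from -0.13 to 0.29 and Higd1b from -0.78 to 0.16. The causes were not tested. Same-numbered libraries of different groups had correlations of 0.013 to 0.11 in their deviations from group means, all above 0. Differently numbered ones had -0.092 to 0.037, a range that overlaps the first. No label says that the numbers pair libraries, and the main model did not pair them. Whether same-numbered libraries share a source was not tested. The replicate block gave Des 0.87 (adjusted p = 0.0296) in ABTAA against Fc and moved the count of all genes called there from 197 to 334, and from 144 to 300 in VEGF Trap against Fc; no other member was called. DESeq2 gave no adjusted p for Kcnj8, Cox4i2 and Higd1b, and Higd1b was not tested with 10 counts in 6 libraries or in the fit of ABTAA and Fc alone. Over all genes, ABTAA minus Fc calls ranged from 0 with the covariate or without ABTAA library 2 to 729 with DESeq2, and VEGF Trap minus Fc calls from 1 with the covariate to 657 with DESeq2. The first exceeded the second with DESeq2 but not with library totals (172 against 221) or without ABTAA library 1 (58 against 128) or 2 (0 against 104). ABTAA minus VEGF Trap calls ran from 0 to 30 with no filter. Alternatives for Gja4, Smtn and the gene lists were chosen after seeing the data. Depth limited Higd1b and Cox4i2, at 3 to 31 counts per library, most.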

Other observations

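Pdgfrb, Cspg4, Kcnj8 and Des were lowest in the library numbered 1 in all 3 groups, as were 836 of the 14054 genes tested (5.95%), against 4 of the 9 members. The numbers name libraries, and no label says that they mark a shared day, litter or batch.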
